A study of Rattus norvegicus with 12 samples.

Results

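Mir22, Mir101-2 and Mir101a are the genes of miR-22 and miR-101 in a table of 444 features measured in rat liver by small RNA sequencing. They were chosen by the microRNA number in their names, and all 3 were above 0 in all 12 libraries. RefSeq lists Mir101-2 as the gene of miR-101b, and it is the most abundant of the 3. The rats were male Sprague-Dawley, an outbred stock, 7 weeks old when dosing by mouth began, and they were dosed on 5 consecutive days. The CAF+DEX group received caffeine at 120 mg/kg together with dextromethorphan hydrobromide monohydrate at 100 mg/kg. The CAF group received caffeine alone at 120 mg/kg, and the DEX group received dextromethorphan hydrobromide monohydrate alone at 100 mg/kg. The Control group received the vehicle, sterile distilled water. Liver was taken 1 h after the last dose from 5 rats per group, and 3 libraries per group were analysed. The labels tie no library to a rat, so p-values measure the spread between these libraries, which may be in part technical. Each library is a piece of whole liver, 1 dose level per drug was used, and all rats were male.

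A microRNA gene is transcribed as a hairpin, from which a short mature strand is cut and loaded into an Argonaute protein. The seed, bases 2 to 8 of the mature strand, pairs with messenger RNAs and lowers their stability or translation. miR-22 is a conserved microRNA known from mouse studies for roles in heart and skeletal muscle growth, and in mouse liver it is linked to lipid handling. miR-101 is known in human cells for repressing EZH2, the enzyme that places the histone mark H3K27me3, and it is often low in human liver cancer. Caffeine blocks adenosine receptors, and dextromethorphan is a cough suppressant that acts on glutamate and sigma receptors.

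The mature strands are shown because they set which genes can be told apart by sequencing and which share a seed. The sequences are RNA from RefSeq (build GRCr8), written 5′ to 3′ with the seed in capitals.
rno-miR-22-3p: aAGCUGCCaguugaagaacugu
rno-miR-101b-3p (Mir101-2): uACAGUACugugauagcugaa
rno-miR-101a-3p (Mir101a): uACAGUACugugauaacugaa

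Both miR-101 genes give the same 3p seed, and miR-22-3p has another. The 3p strands of miR-101a and miR-101b are identical at 20 of 21 bases and differ by A16G, counted from 1 at the 5′ end with the miR-101a base first. The other arms, written in the same way, differ more.
rno-miR-22-5p: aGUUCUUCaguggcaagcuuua
rno-miR-101b-5p (Mir101-2): uCGGUUAUcaugguaccgaugc
rno-miR-101a-5p (Mir101a): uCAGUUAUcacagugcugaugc
The 5p arms of miR-101a and miR-101b differ at 5 of 22 bases, and the first of these, A3G, lies within the seed, so the 5p seeds differ. Among the RefSeq rat mature microRNAs, none outside the pair shares the miR-101 3p seed or comes within 2 mismatches of it at equal length. No other rat mature microRNA there shares the seed of either miR-22 arm.

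The hairpins are shown because the deposited values count reads over the whole annotated hairpin and do not separate the arms. Capitals mark the 3p mature strand. The RefSeq hairpins of Mir22, Mir101-2 and Mir101a are 95, 97 and 75 bases long, while the deposited features are 95, 97 and 83 bases, so the Mir101a stretch shown is shorter than the one counted.
Mir22: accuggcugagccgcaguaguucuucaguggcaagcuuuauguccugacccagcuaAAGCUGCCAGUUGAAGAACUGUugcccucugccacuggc
Mir101-2: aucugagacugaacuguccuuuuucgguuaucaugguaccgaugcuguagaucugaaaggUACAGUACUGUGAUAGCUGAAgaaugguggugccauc
Mir101a: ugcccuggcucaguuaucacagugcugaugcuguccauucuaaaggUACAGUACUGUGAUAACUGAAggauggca
In the deposited table, on build rn7, Mir22 (ENSRNOG00000035620) is on chromosome 10 from 60307039 to 60307133 on the plus strand. Mir101-2 (ENSRNOG00000035532) is on chromosome 1 from 226860371 to 226860467 on the plus strand. Mir101a (ENSRNOG00000035599) is on chromosome 5 from 115966328 to 115966410 on the minus strand. Host genes and exon or intron positions were not analysed here. Mir22 had 1 listed neighbour within 50 kb, Mir6326, which lies on the same strand and had 0 reads in all 12 libraries. A count of 0 allows a share of up to 0.000105% of reads at the shallowest depth, taking 3 reads as the limit. Neither miR-101 gene had a listed neighbour within 50 kb, so neither belongs to a listed cluster.

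The values are FPKM, reads per kilobase of hairpin, scaled to 1000000 reads on the listed features. Reads were recovered from them and came to 2863572 to 3418568 per library, with 258 to 273 features above 0. The hepatocyte microRNA Mir192 averaged 15.2% of reads and ranked above every other listed feature by mean FPKM. It is the defining hepatocyte marker here. Shares and ranks are among the listed features only. The hepatocyte list leaves out miR-122. No row named for miR-122 is among the 135 tested features averaging at least 100 reads. The leukocyte marker Mir142 and the erythroid marker Mir451a averaged 1.153% and 0.0162% of reads. The endothelial list held only 1 row, Mir126a, which averaged 41 FPKM (0.0005% of reads). Whether counting missed reads of this row was not tested. The 4 muscle microRNAs averaged from 1.1 FPKM (Mir133b) to 2714 FPKM (Mir1b, 0.0231% of reads). In bulk tissue, fewer cells of a type and less RNA per cell cannot be told apart.

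Both miR-101 genes were among the most abundant listed features of the liver libraries, and Mir22 was not. Mir101-2 averaged 1048199 ± 42164 FPKM (SD, n = 12) and ranked 2 in every library, with 9.62 to 10.8% of reads. Mir101a averaged 327295 ± 15542 FPKM (SD, n = 12) and ranked 8 or 9 by FPKM, with 2.54 to 2.97% of reads. Mir22 averaged 37168 ± 1560 FPKM (SD, n = 12), ranked 39 to 44, and held 0.334 to 0.382% of reads. Together both miR-101 genes took 12.3 to 13.8% of the reads on the listed features of a library. The summed miR-101 FPKM was 32.6 to 40.9 times that of Mir22.

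**Figure D1:**
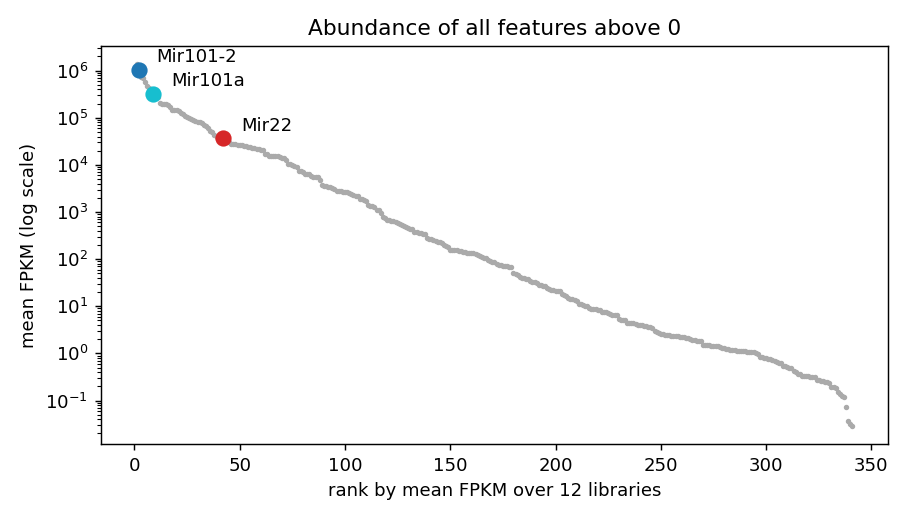
Mean FPKM over 12 libraries (vertical axis, log scale) against rank (horizontal axis) for every feature above 0, with 3 features marked. Mir101-2 stands at rank 2, Mir101a at rank 9 and Mir22 at rank 42.

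The order of levels was fixed at the top and loose around the other 2 genes. Mir192 lay above Mir101-2 in 12 of 12 libraries, and Mirlet7f2, the next feature down with a mean of 716471 FPKM, lay below it in every library. Mir30a, with a mean of 330891 FPKM, was above Mir101a in 7 of 12 libraries, so their order varied between libraries. The difference in their levels was not tested. Mir194-2, a hepatocyte microRNA with a mean of 280708 FPKM, was below Mir101a in every library. Mir497 was above Mir22 in 7 of 12 libraries and Mir27a in 4 of 12, at means of 37932 and 36308 FPKM. Neither difference from Mir22 was tested.

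Mir22 was compared across the treatments. It had 38812, 36831 and 38829 FPKM in the CAF+DEX libraries numbered 1, 2 and 5. It had 35852, 36135 and 37246 FPKM in CAF libraries 1, 2 and 5. It had 38491, 36833 and 40156 FPKM in DEX libraries 1, 2 and 4, against 35141, 35886 and 35801 FPKM in Control libraries 1, 3 and 4. All 3 DEX libraries and all 3 CAF+DEX libraries lay above all 3 Control libraries, while the CAF libraries overlapped both CAF+DEX and Control. Of the 293 features tested, 6.83% were separated upward in this way in DEX against Control and 7.17% in CAF+DEX against Control.

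No difference in Mir22 passed the threshold of an adjusted p of 0.05. Group means were 38157 ± 1149 FPKM in CAF+DEX, 36411 ± 737 FPKM in CAF, 38493 ± 1661 FPKM in DEX and 35610 ± 408 FPKM in Control (SD, n = 3 each). Differences were estimated with limma on log2(FPKM + 3.8), with Benjamini-Hochberg adjustment across the 293 features. The fit draws the spread of each feature towards that of features at a similar level, so an SE also depends on other features. In DEX against Control the log2 difference of Mir22 was 0.11 (SE 0.051, limma unadjusted p = 0.0491, adjusted p = 0.841), or 8.04% with a 95% interval of 0.037 to 16.7%. In CAF+DEX against Control it was 0.099 (SE 0.051, limma adjusted p = 0.579), or 7.13% with an interval of -0.805 to 15.7%. In CAF against Control it was 0.032 (SE 0.051, limma adjusted p = 0.913), with an interval of -5.33 to 10.4%. These 3 comparisons share the Control libraries. With no filter on low values the SE of Mir22 was 0.033 in each, and the limma adjusted p was 0.573 in DEX against Control.

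Mir22 was then set against the single drugs. In CAF+DEX against CAF the log2 difference was 0.067 (SE 0.051, limma adjusted p = 0.901), or 4.78% with an interval of -2.98 to 13.2%. In CAF+DEX against DEX it was -0.012 (SE 0.051, limma adjusted p = 0.963), with an interval of -8.18 to 7.09%; it was 0.011 when libraries were rescaled by their median ratio. The interaction of both drugs was -0.044 (SE 0.072, limma adjusted p = 0.991), and the difference between libraries with and without caffeine was 0.0099 (SE 0.036, limma adjusted p = 0.928). The test of any difference between the 4 groups gave a limma adjusted p = 0.572.

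The libraries with dextromethorphan were compared with those without, a contrast added after the Mir22 values had been seen. Mir22 had 36831 to 40156 FPKM in the 6 libraries with dextromethorphan and 35141 to 37246 FPKM in the 6 without. The ranges overlap through CAF library 5. The log2 difference was 0.089 (SE 0.036, limma unadjusted p = 0.0287, adjusted p = 0.533), or 6.39% with a 95% interval of 0.762 to 12.3%. Of all features tested, 7.51% had an unadjusted p under 0.05 in this contrast and 0% passed after adjustment.

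The summed shares of marker microRNAs were set beside these values. The 6 leukocyte microRNAs summed to 2.59 to 2.97% of reads in DEX and 2.63 to 2.99% in Control. The 4 stellate and mesenchymal microRNAs summed to 2.63 to 2.73% in DEX and 2.4 to 2.71% in Control. The 10 listed hepatocyte microRNAs, of which Mir193a was at 0, summed to 23.5 to 24.3% in DEX and 24.5 to 26.1% in Control, and these ranges do not overlap. In CAF+DEX the leukocyte microRNAs summed to 1.96 to 2.4%, against 2.63 to 2.99% in Control, with no overlap. The erythroid microRNAs summed to 0.0847 to 0.094% in CAF+DEX and 0.101 to 0.122% in Control, also with no overlap, while in DEX they summed to 0.0906 to 0.122%. The hepatocyte sum was 23.3 to 25.7% in CAF+DEX, overlapping Control. In CAF the leukocyte sum was 1.75 to 2.15%, with no overlap with Control, while the hepatocyte sum overlapped Control. The erythroid sum was 0.114, 0.0651 and 0.0602% in CAF libraries 1, 2 and 5, and it overlapped Control only through CAF library 1. Of single features, 10.9% did not overlap in DEX against Control, in either direction. The share was 14.7% in CAF against Control and 14.7% in CAF+DEX against Control. The part of these marker sums in the Mir22 values was not tested. The log2 difference of Mir192, the main contributor to the hepatocyte sum, was -0.11 (SE 0.061, limma adjusted p = 0.841) in DEX against Control.

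**Figure D2:**
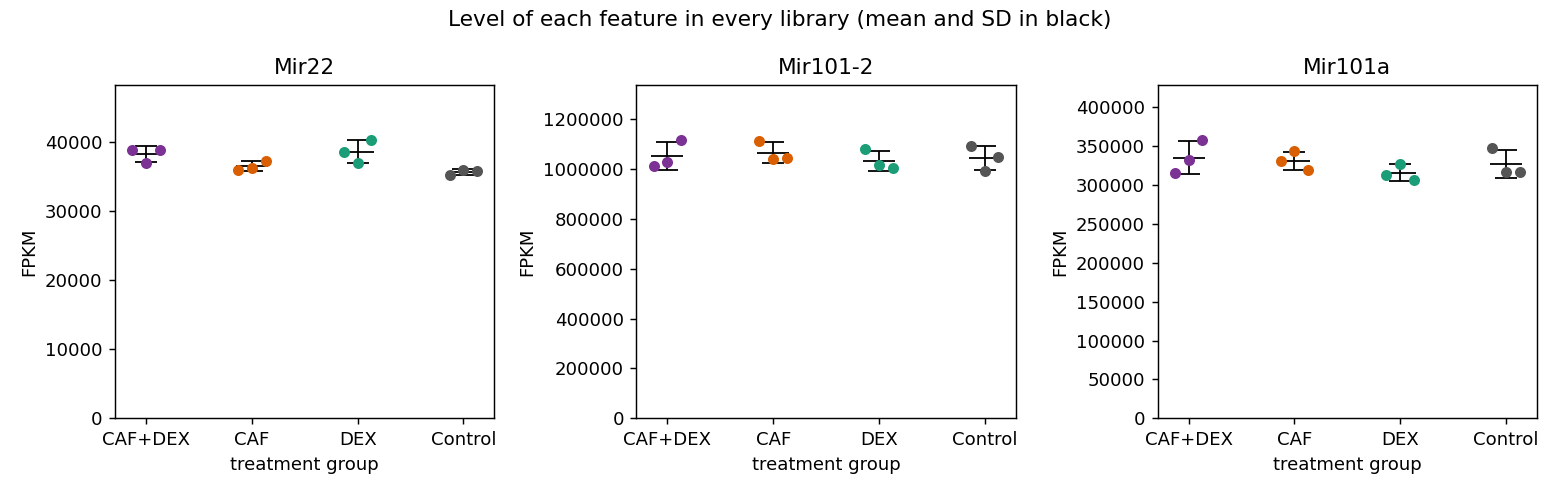
FPKM (vertical axes, from 0) by treatment group for Mir22, Mir101-2 and Mir101a; points are libraries and the black marks are the mean and SD of 3 libraries. All DEX and CAF+DEX libraries lie above all Control libraries for Mir22, while the groups overlap for both miR-101 genes.

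No difference in Mir101-2 passed the threshold. It had 1011211, 1026645 and 1114290 FPKM in CAF+DEX libraries 1, 2 and 5. It had 1113236, 1038394 and 1044080 FPKM in CAF libraries 1, 2 and 5. It had 1079349, 1015144 and 1003680 FPKM in DEX libraries 1, 2 and 4, against 1090655, 991965 and 1049738 FPKM in Control libraries 1, 3 and 4. The groups overlapped in all 5 pairwise comparisons. The share of the 293 features whose groups did not overlap, in either direction, was 14.7% in CAF against Control, 10.9% in DEX against Control, 14.7% in CAF+DEX against Control, 7.17% in CAF+DEX against CAF and 13.7% in CAF+DEX against DEX.

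Log2 differences of Mir101-2 against Control were 0.0089 in CAF+DEX, 0.029 in CAF and -0.015 in DEX (SE 0.059 each, limma adjusted p = 1, 0.923 and 1). The 95% intervals were -7.93 to 9.96% in CAF+DEX, -6.62 to 11.5% in CAF and -9.47 to 8.12% in DEX. The CAF+DEX group differed from CAF by -0.020 (SE 0.059, limma adjusted p = 0.988) and from DEX by 0.024 (SE 0.059, limma adjusted p = 0.93). Its interaction was -0.0049 (SE 0.083, limma adjusted p = 0.991). Across the comparisons with Control, the bounds furthest from 0 were thus -9.47% and 11.5%.

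No difference in Mir101a passed either. It had 316053, 332561 and 357445 FPKM in CAF+DEX libraries 1, 2 and 5. It had 330698, 343295 and 318977 FPKM in CAF libraries 1, 2 and 5. It had 312803, 327736 and 306597 FPKM in DEX libraries 1, 2 and 4, against 347429, 317048 and 316900 FPKM in Control libraries 1, 3 and 4. CAF+DEX library 5 was the highest for both miR-101 genes, and the groups overlapped in all 5 comparisons.

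Log2 differences of Mir101a against Control were 0.035 in CAF+DEX, 0.018 in CAF and -0.050 in DEX (SE 0.061 each, limma adjusted p = 0.978, 0.964 and 0.965). The intervals were -6.48 to 12.3%, -7.62 to 10.9% and -11.9 to 5.81%. The estimate furthest from 0 for this gene was CAF+DEX against DEX, at 0.086 (SE 0.061, limma adjusted p = 0.776), or 6.13% with an interval of -3.15 to 16.3%. It was 0.039 without CAF+DEX library 5. The difference from CAF was 0.018 (SE 0.061, limma adjusted p = 0.988), and the interaction was 0.068 (SE 0.086, limma adjusted p = 0.991).

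Over libraries with and without caffeine, Mir101-2 differed by 0.027 (SE 0.042, limma adjusted p = 0.88) and Mir101a by 0.052 (SE 0.043, limma adjusted p = 0.706). The leukocyte list, by contrast, had 2 of 6 members, Mir142 and Mir146a, lower at a limma adjusted p under 0.05 in this contrast. They were all that passed, 0.683% of the 293 features, and 0 features passed with no filter on low values. The median log2 difference of the leukocyte list was -0.36, while 9 tested hepatocyte microRNAs had 0 passing and a median of 0.01. All features had a median of -0.0078. Medians of the other lists were -0.40 (muscle), -0.39 (erythroid), -0.035 (biliary epithelium), 0.13 (stellate and mesenchymal) and 0.24 (endothelial, 1 member), with 0 passing in each. With and without dextromethorphan, Mir101-2 differed by -0.018 (SE 0.042, limma adjusted p = 0.959) and Mir101a by -0.016 (SE 0.043, limma adjusted p = 0.989). The test of any difference between the 4 groups gave a limma adjusted p = 0.991 for Mir101-2 and a limma adjusted p = 0.909 for Mir101a.

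Counted over the 3 genes, 0 passed in any contrast. In limma 0.683% of all features passed in CAF against Control, 0% in DEX against Control, 0% in CAF+DEX against Control, 0% in CAF+DEX against CAF and 0% in CAF+DEX against DEX. The share was 0% for the interaction, 0.683% for caffeine and 0.341% for any difference between the groups. At an unadjusted p under 0.05, 1 of the 3, Mir22, was below that level in DEX against Control, where 4.44% of all features were, and in the contrast of libraries with and without dextromethorphan, and limma-voom on the recovered reads also passed 0 of the 3 after adjustment.

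**Figure D3:**
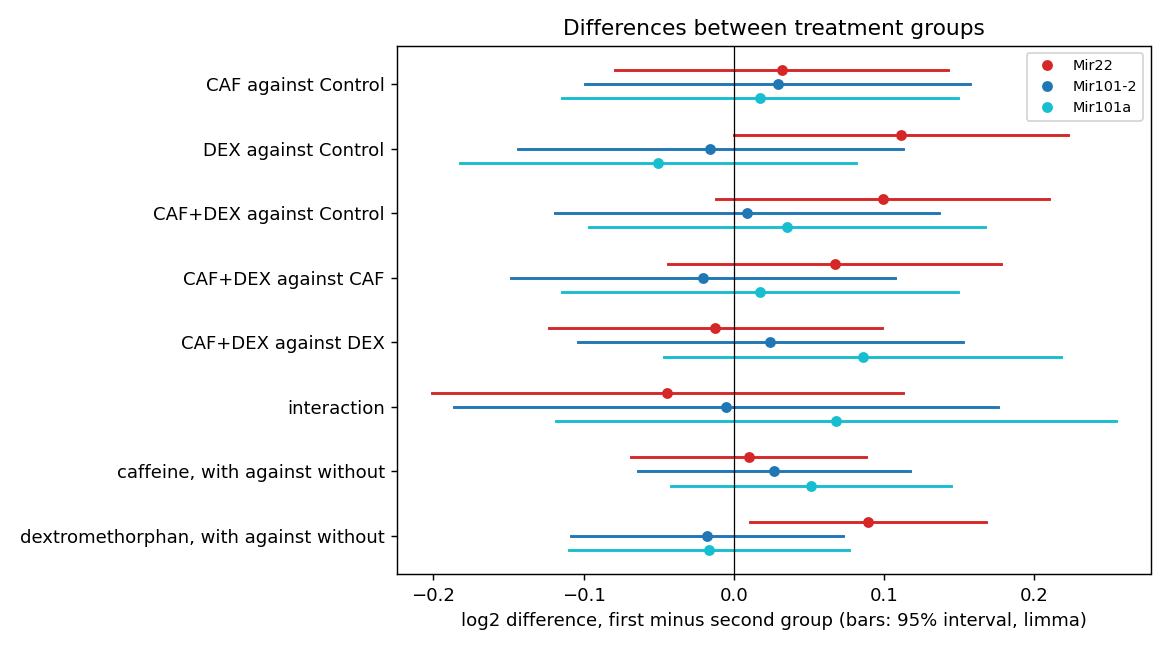
Log2 difference (horizontal axis, first minus second group) with its 95% interval from limma, for 3 features in 8 contrasts. The intervals of both miR-101 genes include 0 in all 8 contrasts, and those of Mir22 lie above 0 for DEX against Control and for libraries with against those without dextromethorphan, before adjustment for 293 features.

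The proportion of the miR-101 genes to each other varied about as much as their levels. Over the 12 libraries the SD was 4.02% of the mean for the ratio, 4.02% for Mir101-2 and 4.75% for Mir101a. Per length, Mir101-2 was 3.13 ± 0.058 times Mir101a in CAF+DEX, 3.22 ± 0.177 times in CAF, 3.27 ± 0.177 times in DEX and 3.19 ± 0.103 times in Control (SD, n = 3 each). Over the 12 libraries the ratio ran from 3.02 to 3.45, both extremes being in groups given a single drug. The recovered reads of neither miR-101 gene were whole numbers in any library. Those of Mir22, which has no near-identical partner, were whole in 2 of 12 libraries. The split of reads between the near-identical miR-101 genes is uncertain, and how many were shared was not measured here.

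Across the 12 libraries Mir101-2 and Mir101a had a Pearson r of 0.588 (permutation p = 0.0462, adjusted p = 0.139 over the 3 pairs of genes) and a Spearman rho of 0.531 (permutation p = 0.0798, adjusted p = 0.24). With group means removed r was 0.573, and without CAF library 1 and CAF+DEX library 5, the libraries furthest from the median of Mir101-2, it was 0.412. Mir22 and Mir101-2 had r = -0.164 (permutation p = 0.608, adjusted p = 0.608) and rho = -0.231 (permutation p = 0.473, adjusted p = 0.473). Mir22 and Mir101a had r = -0.338 (permutation p = 0.282, adjusted p = 0.423) and rho = -0.357 (permutation p = 0.258, adjusted p = 0.387). With group means removed these were -0.111 and -0.435. Without CAF+DEX library 5 and DEX library 4 they were -0.251 and -0.61. All values are shares of one library total, so 2 features that take much of it are not free of each other. The near-identical miR-101 genes may also share reads, and the part of such reads in their r was not tested. Libraries were permuted across groups, and the values with group means removed carry no p.

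**Figure D4:**
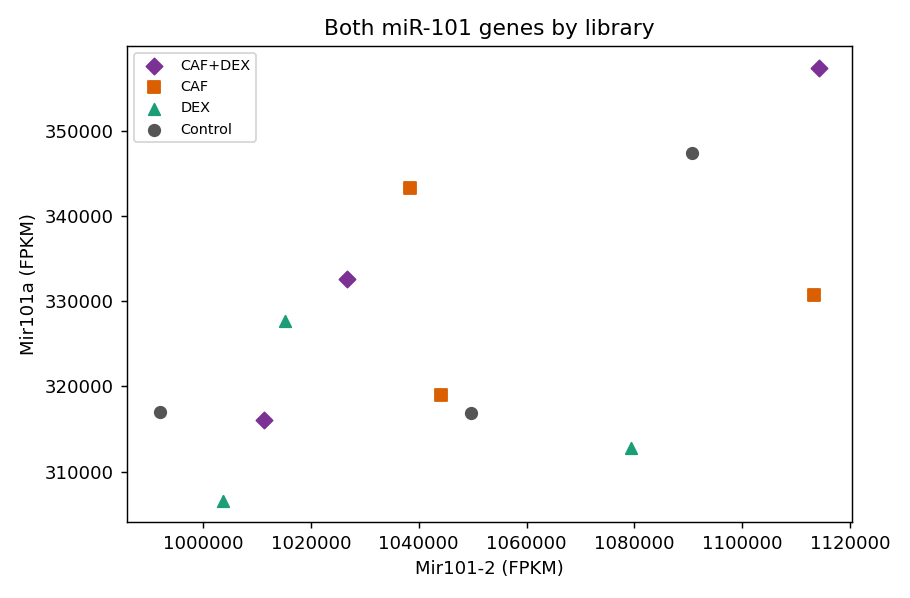
FPKM of Mir101a (vertical axis) against Mir101-2 (horizontal axis), 1 point per library, shaped and coloured by treatment group; neither axis starts at 0. CAF+DEX library 5 is highest on both axes and no group stands apart.

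The ratio of summed miR-101 to Mir22 does not depend on how a library is scaled. It was 34.2, 36.9 and 37.9 in CAF+DEX libraries 1, 2 and 5. It was 40.3, 38.2 and 36.6 in CAF libraries 1, 2 and 5. It was 36.2, 36.5 and 32.6 in DEX libraries 1, 2 and 4, against 40.9, 36.5 and 38.2 in Control libraries 1, 3 and 4. All 3 DEX libraries lay below all 3 Control libraries, though DEX library 2 at 36.458 was only just below Control library 3 at 36.477.

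The log2 ratio differed by -0.14 in DEX against Control, at an exact permutation p = 0.1, the smallest that 3 against 3 libraries allow (two-sided, adjusted p = 0.35 over 7 tests). It was -0.084 without DEX library 4. The other pairwise differences were -0.084 in CAF+DEX against Control, -0.0053 in CAF against Control, -0.079 in CAF+DEX against CAF and 0.051 in CAF+DEX against DEX, with exact permutation p = 0.4, 1, 0.3 and 0.5. The first of these was -0.040 without Control library 1 and -0.041 without CAF+DEX library 1, and CAF+DEX against CAF was -0.036 without CAF+DEX library 1. Caffeine, compared within the libraries with and without dextromethorphan, gave 0.023 (exact permutation p = 0.615, two-sided, adjusted p = 0.718). Dextromethorphan, compared within the libraries with and without caffeine and added after the values were seen, gave -0.11 (exact permutation p = 0.03, two-sided, adjusted p = 0.21). In this comparison the smallest possible p is 0.005. Leaving out 1 library at a time gave exact permutation p-values of 0.02 to 0.095, and 8 of the 12 were at or above 0.05. For dextromethorphan the limma log2 differences were 0.089 for Mir22, -0.018 for Mir101-2 and -0.016 for Mir101a. Mir22 is the denominator, so this ratio result is not separate from the Mir22 values.

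Mir22 had among the smallest spreads of the better covered features. Its within-group SD was 0.0416 on the log2 scale, and 1 of the 135 tested features averaging at least 100 reads, Mir29b1, had a smaller one. Mir101-2 had 0.0646 and Mir101a 0.069, with 24 and 27 of the 135 features below them, and the median was 0.11. Counting alone gives an SD of about 0.0137 for Mir22, 0.0025 for Mir101-2 and 0.0049 for Mir101a, all below the spreads observed. The Wilson 95% interval of the Mir22 share was 0.328 to 0.34% in Control library 1 and 0.375 to 0.388% in DEX library 4, its lowest and highest libraries. Such intervals cover counting error only.

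**Figure D5:**
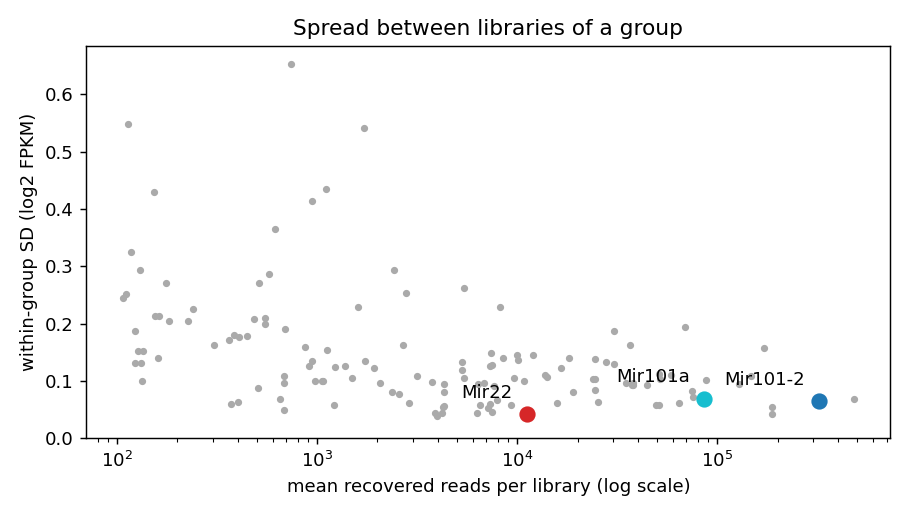
Within-group SD of log2 FPKM (vertical axis) against mean recovered reads per library (horizontal axis, log scale) for 135 features averaging at least 100 reads. Mir22 lies near the bottom at 0.0416, and both miR-101 genes lie below the median of 0.11.

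For each gene, the 3 features with the most similar levels over the 12 libraries were picked by Pearson r among the features averaging at least 100 reads, as a description. Mir22 was most like Mir20a (r = 0.798), Mir362 (r = 0.754) and Mirlet7d (r = 0.722), and with group means removed these were 0.521, 0.425 and 0.274. Mir20a had 14645 ± 1154 FPKM in CAF+DEX, 13582 ± 243 FPKM in CAF, 14699 ± 1333 FPKM in DEX and 12526 ± 745 FPKM in Control (SD, n = 3 each), with the same order of group means as Mir22. Mir101-2 was most like Mir301a (r = 0.696), Mir30c1 (r = 0.68) and Mir30c2 (r = 0.666). Mir101a was most like Mir301a (r = 0.695), Mir192 (r = 0.692) and Mir339 (r = 0.66). With group means removed r was 0.771 for Mir101-2 with Mir301a and 0.806 for Mir101a with Mir192. All these pairs share libraries and their scaling, and each was chosen for its high r.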

How the data were processed

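Per the labels' protocols, a QIAseq miRNA kit with unique molecular indices was used; their collapsing is not given in the sources used. Per the submitters' processing notes, cutadapt 3.7, STAR 2.7.11b and featureCounts (Subread 2.0.6) were used with build rn7; no parameters are given. The authors deposited FPKM for 444 features of 46 to 141 bases, scaled so that FPKM times length in kilobases sums to 1000000 per library. Reads were recovered as the smallest library total that made all values multiples of 0.01 read; 50.5 to 58.3% of values above 0 were then whole. Headers show each library's group and a number that matches no sample title with certainty.

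The 293 features above 0 in at least 3 of 12 libraries were tested as log2(FPKM + 3.8), 3.8 being the 10th percentile of values above 0. One limma-trend fit (limma 3.58.1, R 4.3.3) with 4 group means gave all contrasts, Benjamini-Hochberg adjusted over the 293 features. The fit was tested on simulated data. Exact permutation tests used Python 3.11.15, and correlations 100000 permutations. Genes were named by a rule of level, likeness, position and seed. Of the listed names, 373 matched RefSeq mature sequences. The genes and lists were chosen with earlier results of these data known.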

Additional observations from a re-analysis of the deposited data

How the results depend on the processing

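In 176 fits each, over all contrasts and settings, Mir22, Mir101-2 and Mir101a were never past the threshold; their lowest limma adjusted p-values were 0.359, 0.739 and 0.495. Apart from leaving out libraries, settings turned the direction of 3 estimates near 0. With median-ratio scaling, Mir22 in CAF+DEX against DEX was 0.011 and the Mir101-2 interaction 0.0012. With quantile normalization, Mir101a with against without dextromethorphan was 0.014. Quantile normalization also sets Mir101-2 to a difference of 0 in every contrast by construction, since it holds the same rank in all libraries. Mir101a ranked 8 or 9 by FPKM, so under this setting its differences reflect only changes between these ranks. The other settings for the ratio of summed miR-101 to Mir22 were Mir101-2 alone over Mir22 and recovered reads not divided by length. Both kept the direction of its differences, which was nearly fixed in advance because they use largely the same reads.

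Leaving out 1 library at a time turned 25 of 198 estimates of the 3 genes, counted where the library left out is part of the contrast. Mir22 ranged from 0.016 to 0.043 in CAF against Control, 0.081 to 0.14 in DEX against Control, 0.087 to 0.12 in CAF+DEX against Control, -0.044 to 0.019 in CAF+DEX against DEX, -0.076 to -0.013 for the interaction, and -0.0058 to 0.025 for caffeine. Mir101-2 ranged from -0.0072 to 0.061 (CAF against Control), -0.052 to 0.017 (DEX against Control), -0.034 to 0.041 (CAF+DEX against Control), -0.063 to 0.012 (CAF+DEX against CAF), -0.019 to 0.057 (CAF+DEX against DEX) and -0.048 to 0.032 (interaction). Mir101a ranged from -0.0090 to 0.062 (CAF against Control), -0.078 to -0.0063 (DEX against Control), -0.012 to 0.079 (CAF+DEX against Control), -0.029 to 0.0595 (CAF+DEX against CAF), 0.021 to 0.11 (interaction) and -0.0398 to 0.0057 (dextromethorphan). The log2 ratio ranged from -0.044 to 0.039 (CAF against Control), -0.00049 to 0.094 (CAF+DEX against DEX), -0.0029 to 0.045 (caffeine) and -0.13 to -0.081 (dextromethorphan). The cause was not tested.

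Counts of all features called moved more. In CAF against Control, 2 calls became 4 with quantile normalization, 0 with only the groups compared, and 0 to 10 without 1 library. In CAF+DEX against Control, 0 became 2 with the larger pseudocount, no filter or the stricter filter, and 1 with quantile normalization. In CAF+DEX against DEX, 0 became 1 with quantile normalization. Leaving out 1 library gave 0 to 1 there, in DEX against Control and for the interaction. For caffeine, 2 became 5, 0, 10, 5, 11 and 4 with the larger pseudocount, no filter, the stricter filter, quantile normalization, median-ratio scaling and limma-voom, and 1 to 10 without 1 library. For any difference, 1 became 0 with no filter and 0 to 4 without 1 library. No paired analysis was possible because the numbers in the column headers could not be matched to those of the sample titles. Each group has 3 libraries, which limits precision.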
